A study of Mus musculus with 6 samples.

Results

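The genes described here move calcium into the cytoplasm or out of it: Orai1, Stim1 and Stim2 of store-operated entry, the inositol trisphosphate receptors Itpr1, Itpr2 and Itpr3, the cation channels Trpv2 and Trpv4, and the calcium pumps Atp2b1 and Atp2a2. All probe sets that the platform annotation pairs with 1 of these 10 symbols alone were taken, which gave 24 of the 45037 non-control probe sets of the array. They stand for 9 of the 10 genes, out of 18193 genes with a probe set of their own. No probe set was paired with Itpr1 alone in the annotation used here, so Itpr1 was not analysed here. The arrays came from bone marrow macrophages of knockin (KI) mice, 3 arrays, and of wild-type (WT) mice, 3 arrays, all of strain C57BL/6 per the labels. Cells of both genotypes had received M-CSF (44 ng/ml) and RANKL (100 ng/ml) for 24 hours. M-CSF keeps macrophage precursors alive, and RANKL is the cytokine that drives them towards osteoclasts, the cells that resorb bone. The series title names the IVVY motif of RANK, the RANKL receptor. The labels describe neither the altered residues nor the age of the mice, and they do not say whether the arrays of a genotype came from separate mice, so p-values measure the spread between these arrays, which may be technical.

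Calcium acts as a second messenger in osteoclast precursors. RANK and its immunoglobulin-like co-receptors activate phospholipase C gamma, which makes inositol trisphosphate; the receptor for that messenger then releases calcium from the endoplasmic reticulum. Emptying of the store is sensed by STIM proteins, which open ORAI channels in the plasma membrane, while TRPV channels add entry that does not need an empty store, and calcium pumps return the ion to the store or the outside. The resulting calcium oscillations activate calcineurin, which sends NFATc1, the master transcription factor of osteoclasts, into the nucleus.

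Of the 24 probe sets, 20 were bright enough to be tested. A probe set was tested when its log2 intensity, averaged over the 6 arrays, exceeded the median for non-control probe sets. In all 22518 met this and entered the limma fit, with Benjamini-Hochberg adjustment over all of them and a threshold of 0.05. In KI cells 11 of the 20 were higher (55%), 2 were lower (10%) and 7 did not pass. Over all tested probe sets 44.9% passed, 19.3% as higher and 25.6% as lower. Orai1, Stim1, Itpr2, Trpv2, Trpv4 and Atp2b1 held the 11 rises, and Stim2 and Atp2a2 the 2 falls. The median log2 difference, KI minus WT, was 0.33 over the 20, against -0.04 over all tested probe sets, and the median absolute difference was 0.37 against 0.27. KI and WT arrays did not overlap for 13 of the 20, and for 60.9% of all tested probe sets. Only Trpv4 differed at least 2-fold among the 20, a size reached with a pass of the threshold by 8.15% of all tested probe sets.

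Signed differences depend on how the arrays are scaled. The deposited values have nearly equal medians (83.0 to 84.8), and the directions given are those of these values. When the arrays were scaled to their hybridisation spike-in probe sets, all tested probe sets had a median of -0.25 and the members one of 0.12. The array also holds an older version of these spike-in probe sets. Scaled to those (older spike-in scaling), the medians were -0.57 and -0.20. Of the 20 member probe sets 1 was then higher and 4 were lower, beside 3.23% higher and 47% lower of all tested probe sets. The older spike-in probe sets spread widely, with a mean log2 of 10.2 to 10.8 on WT arrays and 10.9 to 11.1 on KI arrays. This scaling is therefore imprecise: the SE of the brighter Orai1 probe set was 0.28, against 0.11 as deposited. Both scalings shift every probe set of an array by the same amount, so by construction they leave the gap between the members and all probe sets, and the differences between members within an array, as they are.

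The labelled cell type was checked with marker genes. All 6 macrophage markers (such as Csf1r and Cd68) were expressed and higher in KI cells, with a summed intensity of 85050.1 to 89965 on KI arrays and 53797 to 67908 on WT arrays. The 5 osteoclast markers that were tested (such as Acp5 and Mmp9) were lower in KI cells, with a sum over the list of 28357 to 31243 on KI arrays and 61683 to 70042 on WT arrays. Of 6 markers of neutrophils and myeloid progenitors 3 were higher in KI cells, and the sum was 5743 to 12637 on KI arrays and 4107 to 5327 on WT arrays. Markers of mast cells, B cells and T cells were near background, with summed intensities of at most 391 on any array. The sum of stromal markers ran from 2107 to 8161 on KI arrays and from 1975 to 6781 on WT arrays, mostly Col1a2. That of erythroid and megakaryocyte markers was 7457 to 9139 on KI arrays and 2461 to 3356 on WT arrays, mostly Pf4. Of the 3 tested markers of that list Pf4 alone was higher, and the others did not pass. In RNA of whole cultures, a changed number of cells of a type cannot be told apart from a changed amount of RNA per cell, and the part of these markers in the differences of the calcium genes was not tested.

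Promoter sequences (RefSeq, GRCm38.p6, 250 bases before to 50 after an annotated start) were available for 8 of the 10 genes. They are shown for the STIM pair, whose brightest probe sets differed in opposite directions (for Stim2 with a call that several alternatives ended), and for the TRPV pair, whose members both rose. Capitals mark the GC box GGGCGG on either strand, except in Trpv2, where they mark the PU.1 core GAGGAA. The sequences lie at chr7:102267569-102267868 (plus strand), chr5:53998273-53998572 (plus strand), chr11:62574236-62574535 (plus strand) and chr5:114658372-114658671 (minus strand).
Stim1: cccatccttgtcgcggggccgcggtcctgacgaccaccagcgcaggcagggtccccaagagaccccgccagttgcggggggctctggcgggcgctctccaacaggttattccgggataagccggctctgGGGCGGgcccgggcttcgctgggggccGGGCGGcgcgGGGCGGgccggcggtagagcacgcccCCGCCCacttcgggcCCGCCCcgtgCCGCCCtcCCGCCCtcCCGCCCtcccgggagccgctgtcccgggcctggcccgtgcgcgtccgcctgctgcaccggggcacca
Stim2: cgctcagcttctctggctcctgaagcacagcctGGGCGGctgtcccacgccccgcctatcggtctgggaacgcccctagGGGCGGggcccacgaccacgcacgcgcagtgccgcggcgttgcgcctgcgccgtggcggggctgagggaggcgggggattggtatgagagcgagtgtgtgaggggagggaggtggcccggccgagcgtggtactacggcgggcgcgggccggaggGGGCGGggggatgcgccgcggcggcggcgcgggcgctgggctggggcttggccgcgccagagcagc
Trpv2: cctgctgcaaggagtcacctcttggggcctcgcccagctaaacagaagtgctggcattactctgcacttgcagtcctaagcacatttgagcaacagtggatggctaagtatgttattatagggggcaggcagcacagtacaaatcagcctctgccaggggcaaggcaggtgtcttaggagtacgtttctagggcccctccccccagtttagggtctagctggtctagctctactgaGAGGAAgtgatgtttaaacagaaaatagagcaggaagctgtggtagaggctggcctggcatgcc
Trpv4: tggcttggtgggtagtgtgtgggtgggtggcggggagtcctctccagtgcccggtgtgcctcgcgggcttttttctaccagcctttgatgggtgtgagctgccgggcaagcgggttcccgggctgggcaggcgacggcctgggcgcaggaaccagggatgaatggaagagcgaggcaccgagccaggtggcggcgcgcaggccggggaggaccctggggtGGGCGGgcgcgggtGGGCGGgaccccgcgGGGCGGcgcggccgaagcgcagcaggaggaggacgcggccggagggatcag
The Stim1 promoter held 8 GC boxes, that of Stim2 3 and that of Trpv4 3, and the Trpv2 promoter shown held 0 but had 1 PU.1 core. GC content was 78.7% for Stim1, 76.7% for Stim2, 73% for Trpv4 and 53% for Trpv2, against a median of 52.7% over 32851 promoters. The GC box was also present in the promoters of Orai1, Itpr2, Itpr3 and Atp2b1, and in 35.7% of all promoters. The PU.1 core was in 28.3% of all promoters; among the members it was found at 2 overlapping starts of Trpv2 alone. The NFAT core GGAAA, present in 61.3% of all promoters on either strand, was in 1 of 3 Trpv2 promoters and 1 of 2 Atp2b1 promoters and in those of no other member. The E-box CACGTG (7.15% of all) was in the Itpr3 promoter and 1 Atp2b1 promoter, and the AP-1 motif TGANTCA (7.81% of all) in none of them. Of the motifs searched, GAGGAA and GGAAA can overlap. A match is only a match of letters, and its absence from these windows says nothing of the factor.

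**Figure D1:**
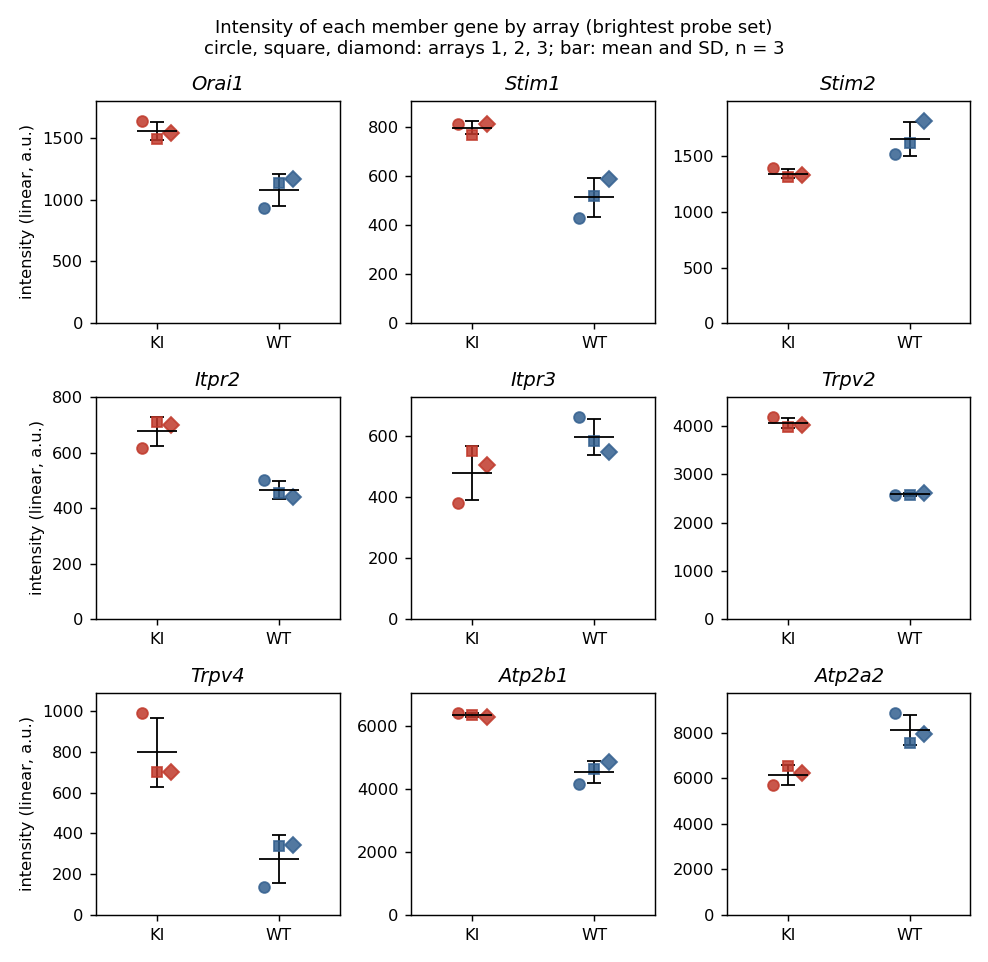
Deposited intensity (linear scale, arbitrary units) of the brightest probe set of each measured member gene on each array, KI left of WT, with the mean and SD of 3 arrays as bars. On these probe sets KI and WT arrays overlap for Itpr3 alone. Stim2 and Atp2a2 lie lower in KI cells and the other 6 genes higher. Dimmer probe sets of Stim2, Itpr2 and Atp2a2, not drawn, overlap. KI and WT arrays do not overlap for 13 of the 20 tested member probe sets and for 60.9% of all tested probe sets.

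Orai1 and Stim1, which together form the store-operated calcium channel and its trigger, rose together in KI cells on the deposited scale. Orai1 encodes the pore of the calcium release-activated channel. Its brighter probe set had intensities of 1635, 1492 and 1534 on the KI arrays and 931, 1136 and 1167 on the WT arrays. Every KI array lay above every WT array, and the rise was 1.45-fold (log2 difference 0.53, SE 0.11, adjusted p = 0.0078 by limma). The dimmer Orai1 probe set gave 359, 279 and 317 in KI cells and 188, 218 and 225 in WT cells. It rose by a like amount, 1.51-fold (log2 difference 0.60, SE 0.12, adjusted p = 0.0088). Both probe sets passed under spike-in scaling, with 0.33 (adjusted p = 0.024 by limma) and 0.39 (adjusted p = 0.017). Neither passed under older spike-in scaling, where they were 0.00 (adjusted p = 0.99) and 0.07 (adjusted p = 0.84).

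Stim1 encodes the sensor in the endoplasmic reticulum membrane that couples an empty store to Orai1. Its brighter probe set had 814, 767 and 813 on the KI arrays and 429.6, 519 and 589.7 on the WT arrays, a rise of 1.57-fold (log2 difference 0.65, SE 0.12, adjusted p = 0.0069 by limma). It passed under spike-in scaling (0.44, adjusted p = 0.015) but not under older spike-in scaling (0.12, adjusted p = 0.71). KI arrays were close to each other, whereas the WT arrays spread more widely, with the lowest value on WT 1. The other Stim1 probe set, of the _x_at kind that can bind related transcripts, gave 459, 432 and 469 in KI cells and 326, 337 and 339 in WT cells. This was a rise of 1.36-fold (log2 difference 0.44, SE 0.08, adjusted p = 0.0049), a value that turned to -0.09 (adjusted p = 0.78) under older spike-in scaling and did not pass under spike-in scaling (0.23, adjusted p = 0.065). The sample descriptions carry a number whose meaning the labels do not give. Fitted as a covariate, it left the brighter probe set at 0.63 with an adjusted p of 0.053, and the SE was 0.19 against 0.12 without it. The number partly goes with genotype, being higher on KI 2 and KI 3 than on any WT array. Here and below, this fit therefore cannot fully separate the number from genotype, and what a lost pass under it stems from was not tested.

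Stim2, the sensor that responds to smaller losses of stored calcium and sets basal calcium levels, differed in the other direction on its brighter probe set. That probe set had 1394, 1311 and 1331 on the KI arrays and 1522, 1622 and 1818 on the WT arrays. The arrays of the genotypes did not overlap, and limma gave a log2 difference of -0.29 (SE 0.09) with an adjusted p of 0.032. That call was fragile: it ended when KI 1, KI 2, KI 3, WT 2 or WT 3 was left out (adjusted p from 0.057 to 0.10), without the filter (adjusted p = 0.054) and with quantile normalization (adjusted p = 0.056). The dim Stim2 probe set gave 107, 82.9 and 76.8 in KI cells and 94.4, 90.4 and 94.2 in WT cells, so the genotypes overlapped (log2 difference -0.08, SE 0.13, adjusted p = 0.66).

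Trpv4, a mechanically and osmotically gated calcium channel of the vanilloid family that has been tied to osteoclast differentiation in mice, showed the largest change among the members. Its intensities were 993, 703 and 700.3 on the KI arrays and 137, 341 and 343 on the WT arrays. All KI arrays were above all WT arrays, and the rise was 3.13-fold (log2 difference 1.64, SE 0.37, adjusted p = 0.012 by limma), larger in size than that of 98.4% of all tested probe sets. WT 1 was the lowest by a wide margin and KI 1 the highest, and they widened the difference. Without WT 1 the log2 difference was 1.20 (adjusted p = 0.0021 by limma), and without WT 1 and KI 1 it was 1.04 (adjusted p = 2.3e-05). These arrays are the extremes of Trpv4 itself, so leaving them out narrows the spread within a genotype. The smaller adjusted p values are therefore no added support. With all arrays, Trpv4 also passed under both spike-in scalings, with 1.44 (adjusted p = 0.0084 by limma) and 1.11 under the older one (adjusted p = 0.00038). Without the filter on dim probe sets the adjusted p was 0.0505, and with the description number as a covariate it was 0.0503.

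Trpv2, a related channel that in macrophages moves to the plasma membrane on stimulation, had the smallest p among the members. Its values were 4196, 3979 and 4037 in KI cells and 2565, 2573 and 2624 in WT cells. Arrays of the same genotype lay within a narrow range, and the rise was 1.57-fold (log2 difference 0.65, SE 0.06, adjusted p = 0.00064 by limma). Leaving out any array changed it little, between 0.63 and 0.67 on the log2 scale. Under older spike-in scaling it was 0.12 (adjusted p = 0.69).

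Because Trpv2 had the smallest p, the genes whose pattern was most like its own were sought among 19469 other tested probe sets with 1 gene. The highest correlations over the 6 arrays were those of Dgkz (Pearson r = 0.9999), a kinase that removes diacylglycerol, of Tmem243 (r = 0.9997) and of Rab3gap2 (r = 0.9995). They rose in KI cells by 0.43, 0.95 and 0.88 on the log2 scale. A correlation of this kind mostly repeats the difference between the genotypes, and 154 probe sets had an r above 0.99, so it is given as a description.

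**Figure D2:**
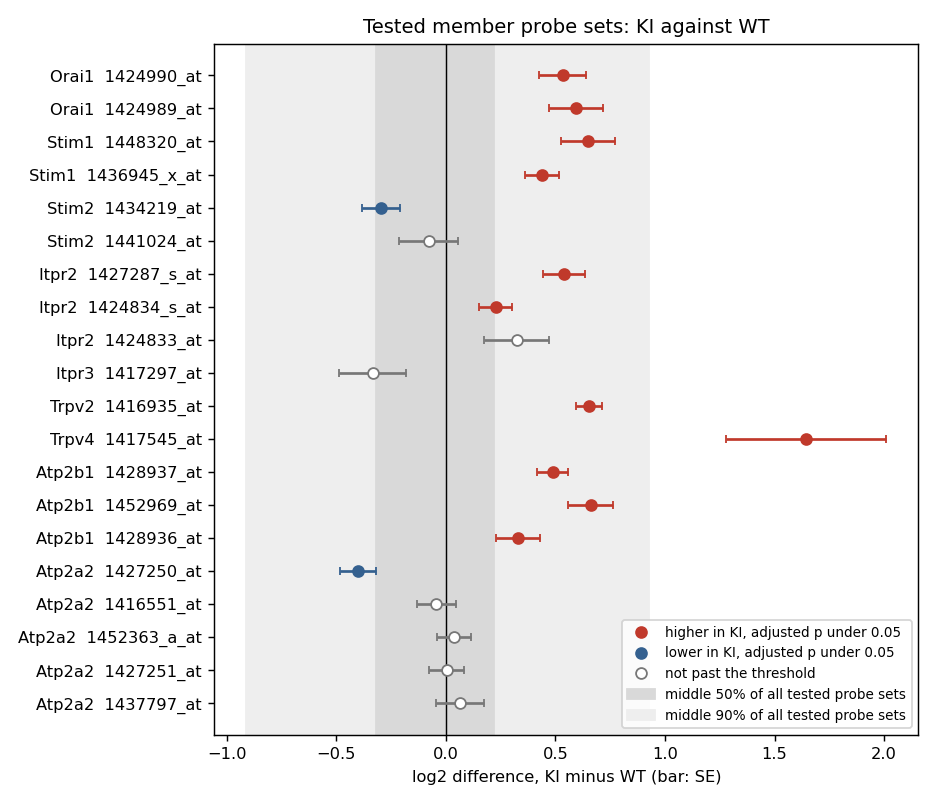
Log2 difference, KI minus WT, with its SE for the 20 tested member probe sets, against the middle 50% (dark grey) and middle 90% (light grey) of all 22518 tested probe sets. Filled points passed an adjusted p of 0.05; Trpv4, at 1.64, is the member outside the light band, and probe sets of Itpr2 and Atp2a2 differ among themselves.

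Of the inositol trisphosphate receptors, the release channels of the endoplasmic reticulum, Itpr2 rose on 2 probe sets while Itpr3 did not pass. The brightest Itpr2 probe set had 617, 713 and 702 on the KI arrays and 502, 454 and 441 on the WT arrays. These groups were separate, and the rise was 1.45-fold (log2 difference 0.54, SE 0.10, adjusted p = 0.0053 by limma). Under spike-in scaling it was 0.33 (adjusted p = 0.071), under the older form 0.01 (adjusted p = 0.97), and with the covariate 0.44 (adjusted p = 0.052). Another Itpr2 probe set gave 214.1, 220.6 and 226.2 in KI cells and 190.7, 182.2 and 191.6 in WT cells. That is a smaller rise of 1.17-fold (log2 difference 0.23, SE 0.07, adjusted p = 0.044), which no longer passed when any 1 of the 6 arrays was left out (adjusted p from 0.061 to 0.14) and turned to -0.30 (adjusted p = 0.32) under older spike-in scaling. Both are of the _s_at kind, which can match several transcripts. A dimmer, gene-specific probe set gave 107, 115 and 124 in KI cells and 77.4, 88.5 and 113 in WT cells, with overlapping groups (log2 difference 0.32, SE 0.15, adjusted p = 0.12). The remaining 3 Itpr2 probe sets were below the filter, at 44.8 to 87.0 on every array, with overlapping groups. The nearest to the filter had a mean log2 of 6.35, and the dimmest tested member probe set one of 6.50.

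Itpr3 had 382, 552 and 505 on the KI arrays and 663, 585 and 548 on the WT arrays. KI 2 lay above WT 3, so the groups overlapped, and the log2 difference of -0.33 (SE 0.15) did not pass (adjusted p = 0.12 by limma). It passed under spike-in scaling (-0.54, adjusted p = 0.046) and under older spike-in scaling (-0.86, adjusted p = 0.0066).

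Atp2b1 encodes a plasma membrane pump that expels calcium, and each of its 3 probe sets rose. The brightest had 6424, 6367 and 6294 on the KI arrays and 4149, 4639 and 4853 on the WT arrays, a rise of 1.40-fold (log2 difference 0.49, SE 0.07, adjusted p = 0.0027 by limma), which was -0.04 under older spike-in scaling. The next gave 2915, 2422 and 2426 in KI cells and 1494, 1676 and 1728 in WT cells, a rise of 1.58-fold (log2 difference 0.66, SE 0.10, adjusted p = 0.0035). The KI and WT arrays were separate for each of them, and KI 1 was the highest KI array. The last gave 1051, 1206 and 1226.5 in KI cells and 999, 844 and 929.7 in WT cells, a rise of 1.26-fold (log2 difference 0.33, SE 0.10, adjusted p = 0.036) that ended without KI 2, KI 3, WT 2 or WT 3 (adjusted p from 0.080 to 0.13) and turned to -0.20 under older spike-in scaling.

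Atp2a2 encodes the pump that refills the endoplasmic reticulum with calcium. Its brightest probe set had 5699, 6554 and 6223 on the KI arrays and 8882, 7569 and 7930.4 on the WT arrays. All KI arrays lay below all WT arrays, and limma gave a fall by 0.40 in log2 units (SE 0.08) at an adjusted p of 0.0085. The other 4 tested Atp2a2 probe sets did not share this, with log2 differences from -0.04 to 0.07, adjusted p from 0.65 to 0.96 and overlapping groups. The last was below the filter, at 32.2 to 46.7. Which parts of the Atp2a2 transcripts the probe sets cover was not analysed here, so the fall holds for 1 of 6 probe sets. With 1 mean log2 value per gene over all its probe sets, Orai1, Stim1, Trpv2, Trpv4 and Atp2b1 still passed, with differences from 0.49 to 1.64. Stim2 (-0.19, adjusted p = 0.13), Itpr2 (0.16, adjusted p = 0.15) and Atp2a2 (-0.06, adjusted p = 0.52) did not.

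Members were also compared with each other in 5 pairs, 3 whose brightest probe sets differed in opposite directions and 2 (Trpv2 with Trpv4, Orai1 with Stim1) that shared a direction. The measure was the log2 difference between the brightest probe sets of 2 members on the same array. Such a difference cancels any scaling of the array and shows unequal change, not which gene changed. For the 3 pairs of opposite direction, a shift follows from those directions. Stim1 minus Stim2 was -0.75 ± 0.04 in KI cells and -1.70 ± 0.11 in WT cells (SD, n = 3 each), a shift of 0.94 (SE 0.07). Stim1 thus moved up relative to Stim2 on every KI array. Itpr2 minus Itpr3 was 0.51 ± 0.17 in KI cells and -0.36 ± 0.04 in WT cells, a shift of 0.87 (SE 0.10) with groups that did not overlap. This shift rests on the brightest Itpr2 probe set, of the _s_at kind. With 1 mean log2 value per gene over all its probe sets, Itpr2 differed by 0.16 and did not pass. Atp2a2 minus Atp2b1 was -0.05 ± 0.11 in KI cells and 0.84 ± 0.23 in WT cells, a shift of -0.89 (SE 0.15). It rests on the Atp2a2 probe set that fell; the other 4 tested Atp2a2 probe sets had log2 differences from -0.04 to 0.07.

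Trpv2 minus Trpv4 was 2.37 ± 0.25 in KI cells and 3.36 ± 0.75 in WT cells, a shift of -0.99 (SE 0.46), which was -0.56 without WT 1 and -0.41 without WT 1 and KI 1. Orai1 minus Stim1 was 0.96 ± 0.05 in KI cells and 1.08 ± 0.08 in WT cells; these groups overlapped, and the shift was -0.12 (SE 0.05). In a two-sided exact permutation test of each pair, the first 4 pairs gave p = 0.1, the smallest that 3 against 3 arrays allow, and Orai1 minus Stim1 gave p = 0.2. Adjusted over the 5 pairs these were 0.125 and 0.2, so no pair could pass. The planned pairs with Itpr1 were not computed.

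**Figure D3:**
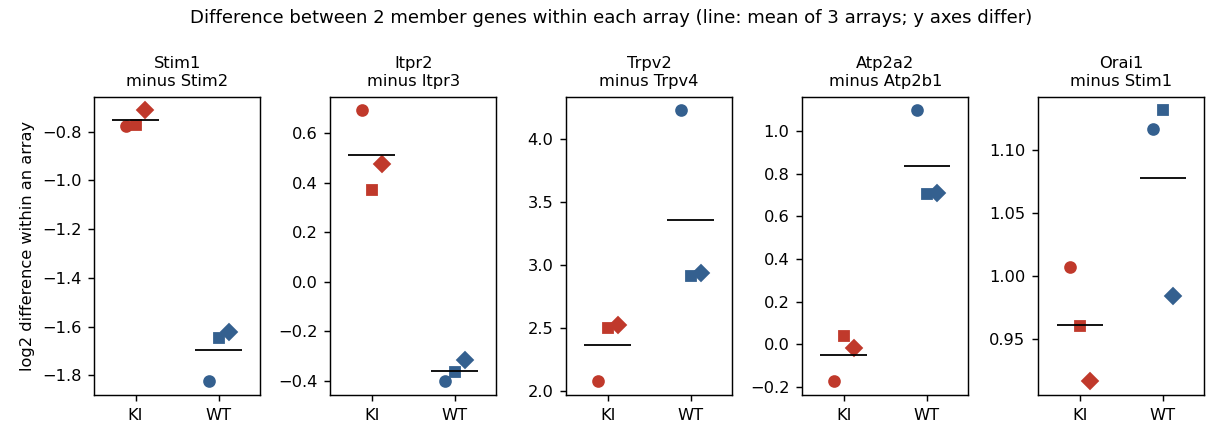
Difference of log2 intensity between 2 member genes within each array, KI left of WT, with the mean of 3 arrays as a line and a y axis of its own for each pair. KI and WT arrays are separate for 4 of 5 pairs and overlap for Orai1 minus Stim1. In 3 of these pairs the brightest probe sets differed in opposite directions, from which separate arrays largely follow. No share over other gene pairs is given.

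On the brightest probe set of each measured member, KI 1 and WT 1 were ends of the range among the arrays of their genotype. On the brightest probe sets KI 1 was the highest and WT 1 the lowest array of its group for 6 genes (Orai1, Stim1, Stim2, Trpv2, Trpv4 and Atp2b1), and KI 1 was the lowest and WT 1 the highest for 3 (Itpr2, Itpr3 and Atp2a2). Such opposite ends were found for 9 of 9 brightest member probe sets and for 48.5% of all tested probe sets, bright or dim. Dimmer member probe sets did not all share this. KI 1 was the middle KI array on the _x_at Stim1 probe set. KI 1 and WT 1 were both lowest on the gene-specific Itpr2 probe set that was tested. On the dimmest Atp2b1 probe set KI 1 was the lowest and WT 1 the highest. Leaving out both KI 1 and WT 1 gave 11 member probe sets higher and 2 lower, the same numbers as with all arrays. Of all tested probe sets 20.6% were then higher and 26.8% lower. The Trpv4 difference was smaller (1.04 against 1.64 on the log2 scale). On the brightest probe sets of Itpr2 and Stim2 the ends ran against the genotype difference, since KI 1 was the KI array nearest to WT.

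Other genes of calcium handling were taken in 8 lists, each gene by its brightest probe set. Of 128 genes listed, 113 had a probe set and 79 were tested; 32 were higher in KI cells (40.5%), 14 were lower (17.7%) and 33 did not pass. Among all genes taken the same way 47.9% passed, 20.9% as higher and 27% as lower. The median log2 difference of the 79 was 0.15, against -0.03 over all genes. Spike-in scaling gave 21 rises and 22 falls, when 11.3% of all tested probe sets were higher and 40% lower. Its older form gave 12 rises and 23 falls, when 3.23% of all tested probe sets were higher and 47% lower. Without KI 3, 21 were higher and 8 lower, beside 13% and 17.1% of all tested probe sets. Without KI 1 or WT 3, 9 were lower, beside 19.7% and 20.9% of all tested probe sets.

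Of 6 tested partners of store-operated entry, 2 rose and 1 fell. Orai2, a sister of Orai1 that can lower the current of mixed channels in mice, averaged 493 ± 13.8 in KI cells and 1201 ± 54.7 in WT cells (SD, n = 3 each), which limma gave as -1.28 on the log2 scale (SE 0.08) with an adjusted p of 0.00022, and fell on both of its probe sets. Orai1 and Orai2 thus changed in opposite directions on the deposited scale; under older spike-in scaling the Orai1 difference was 0.00 on its brighter probe set and 0.07 on the other. Cracr2b, a calcium-binding regulator of ORAI channels, rose from a low level, with 811 ± 104 in KI cells and 270.2 ± 56.7 in WT cells (log2 difference 1.60, adjusted p = 0.0013). Saraf, which slows STIM-driven entry, rose by 0.48 on the log2 scale (adjusted p = 0.0046), and was -0.05 under older spike-in scaling.

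Release channels and their partners held 9 rises and 1 fall among 16 tested genes. Without KI 3 there were 5 rises, with the covariate 3, and under each spike-in scaling 4 rises and 2 falls. The fall was that of Ryr1, a ryanodine receptor, by 1.12 on the log2 scale (SE 0.09), on 1 of 2 probe sets. Ryr1 was near the dim end at 93.9 ± 7.23 in KI cells and 204 ± 4.96 in WT cells. Bcl2l1, a survival protein that also binds inositol trisphosphate receptors, rose by 1.41 (SE 0.13) on 1 of 4 probe sets. The lysosomal channel Mcoln2 rose by 1.36 (SE 0.13), and Itprid2 by 0.35 (SE 0.06), or -0.18 under older spike-in scaling.

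Among 14 tested genes that make or remove inositol phosphates, 6 rose and 1 fell, with 3 and 5 under spike-in scaling and 3 rises without KI 3. Plcb4, a phospholipase C, fell by 1.39 (SE 0.19, adjusted p = 0.0025 by limma), and on 3 of 5 probe sets. Itpkb, which phosphorylates inositol trisphosphate, rose by 0.95 (SE 0.18, adjusted p = 0.0069). The phosphatases Inpp4a and Inpp1 rose by 1.26 (SE 0.25) and 1.55 (SE 0.30), each on 1 of 2 probe sets, and Inpp1 did not pass with the covariate. Of 5 tested pumps and exchangers 3 rose and 1 fell. Slc8b1, the mitochondrial sodium-calcium exchanger, rose by 1.16 (SE 0.17), whereas Slc24a3 fell by 1.01 (SE 0.10). Atp2a3, another store pump, rose by 0.99 (SE 0.14) on 1 of 2 probe sets. The Golgi pump Atp2c1 rose by 0.23 (SE 0.07) at an adjusted p of 0.037, on 1 of 5 probe sets. This did not hold once KI 1, KI 2, KI 3, WT 2 or WT 3 was left out, and it turned to -0.30 under older spike-in scaling.

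Of 9 tested genes of mitochondrial calcium uptake 5 fell and 1 rose, but 2 fell when KI 1 or KI 3 was left out and 3 without WT 3. The outer membrane channels Vdac1 and Vdac3 fell by 0.46 (SE 0.06) and 0.39 (SE 0.09) on the log2 scale, Vdac1 on 4 of 5 probe sets. Letm1, an inner membrane ion exchanger, fell by 0.50 (SE 0.13), which ended without KI 1 or KI 3. Mcur1, a regulator of the uniporter, rose by 0.57 (SE 0.11). Under older spike-in scaling 0 of the 9 rose and 8 fell.

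Of 9 other plasma membrane channels tested, 6 rose and 1 fell. The ATP-gated channels P2rx4 and P2rx7 rose by 1.20 (SE 0.27, adjusted p = 0.011 by limma) and 1.15 (SE 0.22, adjusted p = 0.0068). P2rx4 did not pass without the filter or with the covariate. The TRP channels Trpm2 and Trpm4 rose by 0.80 (SE 0.10) and 0.81 (SE 0.15), Trpm2 on 1 of 2 probe sets. Under older spike-in scaling they were 0.27 and 0.28 and did not pass. P2rx7 had 3884 ± 617 in KI cells and 1777 ± 473 in WT cells, and all 3 of its probe sets rose, as did all 4 of P2rx4. Calcium-binding proteins of the endoplasmic reticulum mostly did not pass, with 2 rises, 2 falls and 9 others of 13 tested. Nucb2 (0.52) and Nucb1 (0.53) rose, and were -0.01 and 0.00 under older spike-in scaling. Rcn1 (-0.63) and Rcn2 (-0.24) fell, each on 1 of 2 probe sets. The calls for Nucb1, Rcn1 and Rcn2 each ended when any of 3 or more different arrays was left out (KI 1, KI 3 or WT 2 for Nucb1; KI 2, WT 1 or WT 3 for Rcn1; any array but KI 2 for Rcn2).

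Calmodulin kinases, which carry the calcium signal onwards, gave 3 rises and 2 falls among 7 tested genes, or 1 fall when any array but WT 1 was left out. Camk1 rose by 1.28 (SE 0.27) and Camk1d by 0.88 (SE 0.14), each on all of its probe sets. Camk2d rose by 0.80 (SE 0.12) on 1 of 7 probe sets. Camk2a, dim at 114 ± 5.29 in KI cells and 182 ± 9.75 in WT cells, fell by 0.68 (SE 0.08); of its 6 probe sets 3 fell and 1 rose.

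**Figure D4:**
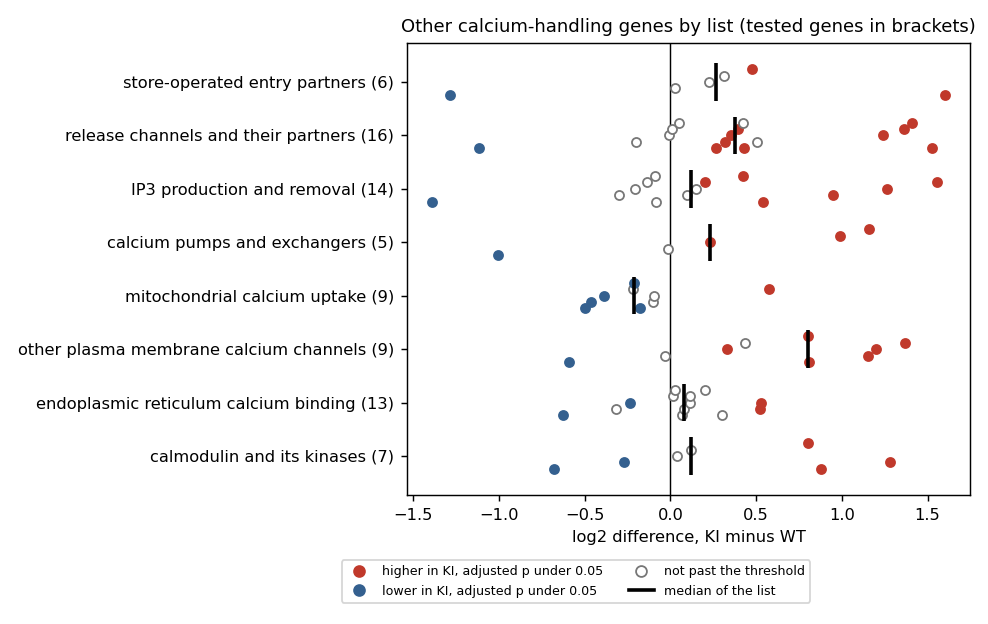
Log2 difference, KI minus WT, of the tested genes of 8 calcium-handling lists, each gene by its brightest probe set, with the median of each list as a black bar. Filled points passed an adjusted p of 0.05; mitochondrial uptake has the lowest median, -0.21, and other plasma membrane channels the highest, 0.80.

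**Figure D5:**
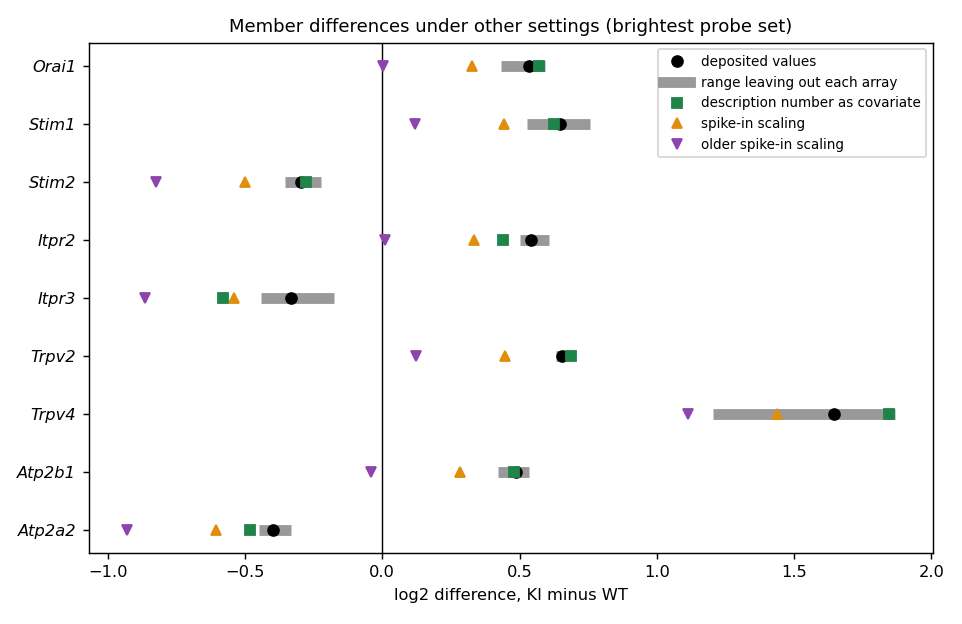
Log2 difference of the brightest probe set of each member gene as deposited (circle), as a range when each array was left out (grey bar), with the description number as a covariate (square) and under the 2 spike-in scalings (triangles). Both scalings shift all genes to the left; Trpv4 stays above 1 in each setting drawn, and Stim2, Itpr3 and Atp2a2 stay below 0.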

How the data were processed

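Biotin-labelled RNA made from oligo-dT primed cDNA was hybridised to Affymetrix mouse arrays, per the labels' protocols. The authors deposited 1 linear intensity per probe set and array, made with Affymetrix Expression Console per the submitters' processing notes; its version and the summarisation and normalization it ran were not given in the sources used here. Intensities were floored at 16 and log2 transformed. Of 45101 probe sets, 64 controls were left out, and genes were named from platform annotation for probe sets with 1 symbol (34945), 34741 of them matched to RefSeq by gene identifier. KI and WT were compared with limma 3.58.1 (R 4.3.3, lmFit and eBayes with an intensity trend), tested on simulated data. The number of arrays limits the precision. Members, lists, tests and alternatives were chosen with earlier results of these data known. The naming rule took all members, up to 4 passing genes per list with the smallest p, and the 3 probe sets most like the leading member; of the bright genes it added without a pass only the number is given. Tnfrsf11a, which encodes RANK, had log2 differences of -1.14 (adjusted p = 0.0015) and 0.22 (adjusted p = 0.45) on its 2 probe sets, and neither checks the labels of the samples.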

Additional observations from a re-analysis of the deposited data

How the results depend on the processing

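Each result was recomputed under up to 20 alternatives. Spike-in scaling gave 7 member probe sets higher, and 21 pathway genes higher and 22 lower; older spike-in scaling gave 1 member higher and 4 lower, and 12 pathway genes higher and 23 lower. The description number as a covariate, which partly goes with genotype, gave 6 members higher and 1 lower, and 15 pathway genes higher. Of all tested probe sets 12.6% were then higher and 16.2% lower. Without the filter 1 member and 9 pathway genes were lower, with quantile normalization 1 member was lower, and with 1 mean per gene 9 pathway genes were lower. Of all tested probe sets 10.5% were lower without the filter and 23.8% with quantile normalization. With the replicate number as a block 0 members (limma) and 8 pathway genes were lower. Of all tested probe sets 12% were then higher and 15.5% lower. Deviations from the group means correlated at -0.40, -0.29 and -0.30 between same-numbered arrays, and no array correlated best with its own number. With 3 arrays per group, whose deviations sum to 0, such values cannot settle whether the numbers pair arrays. Leaving out each array gave 9 to 10 members higher and 1 to 2 lower, and 21 to 32 pathway genes higher and 8 to 12 lower. Over all tested probe sets these fits gave 13% to 18.6% higher and 17.1% to 22.9% lower. Within-array shifts kept their sign in every alternative run, and when an array was left out ranged from 0.88 to 0.98 for Stim1 minus Stim2, 0.78 to 0.95 for Itpr2 minus Itpr3, -1.21 to -0.56 for Trpv2 minus Trpv4, -0.95 to -0.76 for Atp2a2 minus Atp2b1 and -0.16 to -0.09 for Orai1 minus Stim1.

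Signs turned under older spike-in scaling for probe sets of Stim1 (-0.091), Itpr2 (-0.30 and -0.21), Atp2b1 (-0.043 and -0.20) and Atp2a2 (-0.49, -0.52 and -0.46), and for Saraf (-0.052), Itprid2 (-0.18), Atp2c1 (-0.30), Nucb2 (-0.0091) and Nucb1 (-0.0011). Of the Atp2a2 probe sets that did not pass, signs also turned under spike-in scaling (-0.17, -0.20 and -0.14), with the covariate (-0.037 and -0.053), with quantile normalization (0.019), with array weights (0.017 and -0.0060), without WT 1 and KI 1 (0.048), and when an array was left out (ranges -0.095 to 0.027, -0.025 to 0.042 and -0.012 to 0.16). The dim Stim2 probe set turned to 0.19 with the covariate and ranged from -0.22 to 0.021 when an array was left out. The estimation of array weights stopped before convergence, and the cause of these changes was not tested. The planned pairs with Itpr1 could not be run.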
